A study of Mus musculus with 6 samples.

Results

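Depp1 and 8 FOXO-linked genes were followed in the murine small cell lung carcinoma line KP1, among 22180 genes with a probe set of their own. The members were the transcription factors Foxo1, Foxo3 and Foxo4 and the FOXO-linked genes Depp1, Irs2, Pik3ip1, Cited2, Sod2 and Cat. Depp1 was chosen by its large rise in the comparison described here, so its values are a description and carry no test. The other 8 were listed for their place in FOXO biology, with earlier results of these arrays known. All 9 were measured, and dim genes were kept in the test.

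KP1 cells come from a mouse model lacking Rb, p53 and p130, and both groups share those deletions. Cells of the control group received a vector with an internal ribosome entry site and GFP alone, and cells of the N1ICD group the same kind of vector carrying the Notch1 intracellular domain, the active form of the receptor. GFP-positive cells were sorted 48 hours after transfection, and total RNA of 3 samples per group, labelled biological replicates, was hybridised to Affymetrix Mouse Gene 2.0 ST arrays. All samples are of 1 cell line, the insert was delivered by transfection, and the sources used here do not give its promoter or species.

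FOXO proteins are forkhead transcription factors that carry signals of growth factor withdrawal to the genome. Insulin and growth factor receptors act through IRS adaptors, PI3 kinase and AKT, which phosphorylates FOXO proteins and keeps them out of the nucleus. Much of their control is therefore at the level of the protein, which these arrays do not measure. When nuclear, they bind forkhead motifs and act on genes of cell cycle arrest, stress resistance, autophagy and insulin signaling. FOXO1 is also known to bind RBPJ, the DNA-binding partner of the Notch intracellular domain. DEPP1 is known as a FOXO target that localises to peroxisomes and mitochondria and lowers the activity of catalase, the product of Cat.

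The promoters of Depp1 and of the pair that passed the test, Cat and Cited2, are shown because these 3 genes carry the results. Each is the 250 bases before the RefSeq gene start, 5′ to 3′ on the strand of the gene, on build GRCm38.p6. Depp1 lies at chr6:116650434-116650683 on the plus strand, Cat at chr2:103485154-103485403 on the minus strand and Cited2 at chr10:17722978-17723227 on the plus strand. Capitals mark a forkhead motif (GTAAACA or GTAAATA) or the RBPJ motif TGGGAA, each searched on both strands.
Depp1: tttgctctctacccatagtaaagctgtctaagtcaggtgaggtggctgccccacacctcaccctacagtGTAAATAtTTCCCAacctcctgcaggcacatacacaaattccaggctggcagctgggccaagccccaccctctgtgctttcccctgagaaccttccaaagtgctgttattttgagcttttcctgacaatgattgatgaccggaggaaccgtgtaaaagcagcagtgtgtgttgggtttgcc
Cat: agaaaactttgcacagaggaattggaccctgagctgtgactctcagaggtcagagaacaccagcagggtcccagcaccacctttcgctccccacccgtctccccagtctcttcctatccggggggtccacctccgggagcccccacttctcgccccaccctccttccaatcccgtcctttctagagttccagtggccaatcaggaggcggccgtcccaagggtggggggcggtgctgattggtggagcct
Cited2: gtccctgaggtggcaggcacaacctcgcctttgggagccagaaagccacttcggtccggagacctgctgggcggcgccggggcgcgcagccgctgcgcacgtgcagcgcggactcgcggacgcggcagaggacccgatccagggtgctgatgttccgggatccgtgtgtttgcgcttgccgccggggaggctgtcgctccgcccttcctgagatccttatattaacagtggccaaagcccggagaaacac

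The Depp1 window held GTAAATA at bases -181 to -175 from the gene start and, on the other strand, TGGGAA at bases -173 to -168, with 1 base between them. GTAAATA was found in 2.73% of the 32851 RefSeq promoter windows of this length, GTAAACA in 3.17% and TGGGAA in 21.6%. A forkhead motif together with TGGGAA was found in 1.16%. RefSeq windows were matched for 8 of the 9 members, all but Foxo4. Among the other 7 only Sod2 held a match, a TGGGAA at -185 to -180. The motifs were chosen with the Depp1 sequence in view, and a match describes letters, not binding.

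Depp1 measured 4.80, 5.16 and 5.13 on the log2 scale in control replicates 1, 2 and 3, and 10.22, 10.42 and 10.64 in N1ICD replicates 1, 2 and 3. Every N1ICD array was far above every control array, and the lowest N1ICD value exceeded the highest control value by 5.06. The group means were 5.03 ± 0.20 (SD, n = 3) and 10.43 ± 0.21 (SD, n = 3), a difference of 5.40 or 42.1-fold. Its control mean lay below the median gene of every array (6.14 to 6.24). Background was not measured, so the fold holds only for these normalized values. Whether more cells expressed Depp1 or each cell held more of its RNA cannot be told apart in such bulk samples.

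Ordered by log2 change, Depp1 stood in place 4 of 22180 genes. Just above it were the flavin-containing monooxygenases Fmo2 (6.26) and Fmo1 (5.54) and the G1 cyclin Ccnd1 (5.41). Just below were vitronectin, Vtn (5.34), Hhip, which binds Hedgehog ligands (5.18), and tenascin C, Tnc (5.12). The profile most like that of Depp1 over the 6 arrays was that of Hey2, a Notch-induced repressor, with a Pearson r of 0.9995. Stom (0.9991), the cytokine receptor Lifr (0.9991), the tetraspanin Tspan9 (0.9989), the reticulophagy receptor Retreg1 (0.9987) and Tbc1d4, an AKT substrate (0.9986), followed. Pearson r does not weigh the size of a change. The log2 changes of these genes ran from 0.65 (Retreg1) to 4.74 (Stom), with 2.20 for Hey2, against 5.40 for Depp1. In all, 143 genes had an r of at least 0.99, because the 2 groups of arrays stand apart and set most of r, so these values are descriptions.

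The 3 FOXO genes among the members had nearly level mean values in both groups. Foxo6, a FOXO gene outside the members, had a log2 change of -0.69 and is described with the FOXO partners below. Foxo3 had a log2 change of -0.00082 ± 0.098 (SE, limma adjusted p = 0.997), Foxo1 of -0.05 ± 0.11 (adjusted p = 0.854) and Foxo4 of -0.06 ± 0.09 (adjusted p = 0.795), and no member of this trio passed the test. The sign of Foxo3 was positive (0.049) after cyclic loess normalization. Of the 8 genes other than Depp1, 1 rose and 1 fell, and 6 were not past the threshold. Across all genes tested, 3.82% rose and 3.27% fell, 7.1% in all, and nothing is read from the members' share against these.

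Foxo1 measured 7.33, 7.15 and 7.50 in the control arrays and 7.27, 7.20 and 7.34 in the N1ICD arrays. The N1ICD values lay within the control range, and the 95% interval of the difference ran from -0.32 to 0.21. A second, dimmer Foxo1 probe set went from a mean of 6.72 ± 0.10 (SD, n = 3) to 6.76 ± 0.15. Foxo3, the family member best known for stress resistance, measured 7.38, 7.47 and 7.61 in control and 7.45, 7.52 and 7.49 in N1ICD. Here too the N1ICD values lay inside the control range, with an interval of -0.23 to 0.22. Foxo4, the X-linked member, measured 6.87, 7.01 and 6.89 in control and 6.86, 6.89 and 6.85 in N1ICD. The groups overlapped, with an interval of -0.27 to 0.15. These intervals do not show that the 3 genes were unaffected, but they leave out a change of 2-fold in RNA level in either direction.

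**Figure D1:**
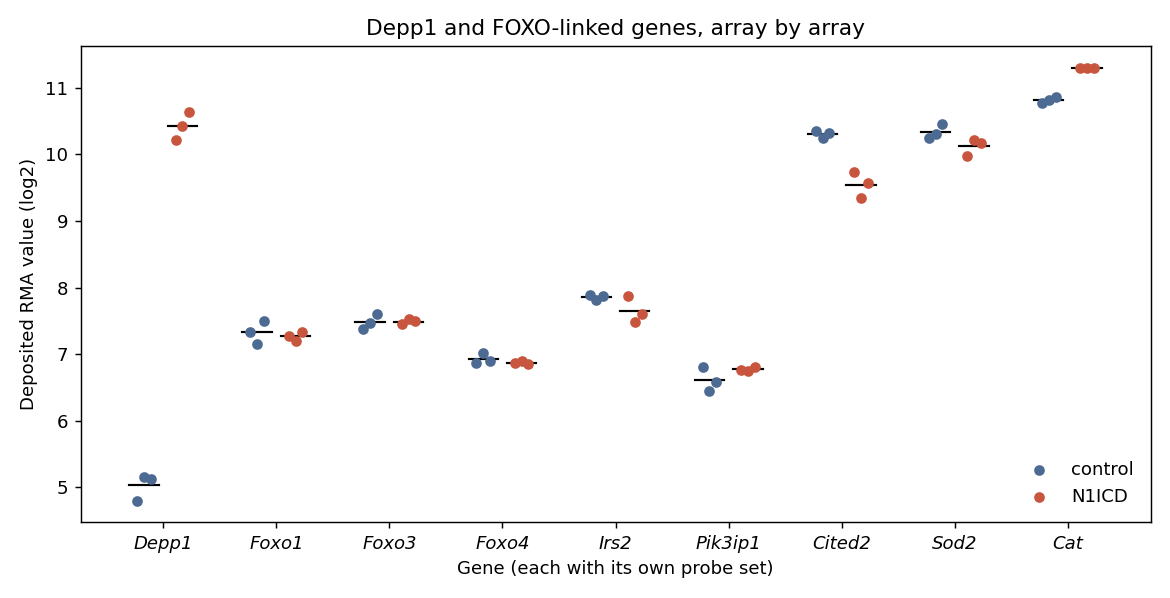
Deposited RMA values (log2, vertical axis) of the 9 genes in each of the 3 control (blue) and 3 N1ICD (red) arrays, with a line at each group mean. Depp1 lies near 5.03 in control and 10.43 in N1ICD, Cat is higher and Cited2 lower in every N1ICD array, and the other genes show small shifts. Heights of different genes come from different probe sets and are not to be compared.

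Irs2, the adaptor that links the insulin receptor to PI3 kinase and is itself a FOXO target, measured 7.89, 7.82 and 7.87 in control and 7.88, 7.48 and 7.61 in N1ICD. N1ICD replicates 2 and 3 lay below all controls and replicate 1 among them. The log2 change was -0.20 ± 0.12 (limma adjusted p = 0.405; interval -0.48 to 0.07). Another probe set carries Irs2 together with 9530052E02Rik and was not used, since its signal cannot be assigned to either gene. Its mean went the other way, from 5.45 ± 0.22 to 5.81 ± 0.17 (SD, n = 3; log2 difference 0.36), with overlapping groups. Pik3ip1, a membrane protein that inhibits PI3 kinase, measured 6.80, 6.45 and 6.58 in control and 6.76, 6.75 and 6.81 in N1ICD. N1ICD replicates 1 and 2 lay inside the control range and replicate 3 just above its top, so the groups overlapped. The log2 change was 0.16 ± 0.11 (adjusted p = 0.493; interval -0.10 to 0.42).

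Cited2, a coactivator-binding protein that competes with HIF1A for CBP and p300, fell. It measured 10.35, 10.24 and 10.32 in control and 9.73, 9.34 and 9.56 in N1ICD. The groups did not overlap, with 0.51 between the lowest control and the highest N1ICD array. The log2 change was -0.76 ± 0.12, or 0.591 of the control level (limma adjusted p = 0.00734; interval -1.03 to -0.49), and the adjusted p stayed at or under 0.0304 in the 12 alternative fits. Within its small family, Cited4 had -0.86 ± 0.23 (adjusted p = 0.0683) and Cited1 -0.04 ± 0.11 (adjusted p = 0.892), both given after their values were seen.

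Sod2 and Cat encode antioxidant enzymes and are classical FOXO3 targets, and their mean values went opposite ways. Sod2, the mitochondrial superoxide dismutase, measured 10.25, 10.31 and 10.45 in control and 9.97, 10.21 and 10.17 in N1ICD. All N1ICD arrays lay below all controls, by as little as 0.04, and the log2 change of -0.22 ± 0.11 did not pass the test (limma adjusted p = 0.32; interval -0.47 to 0.03). Cat, the peroxisomal enzyme that breaks down hydrogen peroxide, rose. It measured 10.76, 10.81 and 10.86 in control and 11.30, 11.29 and 11.29 in N1ICD. The groups were 0.43 apart at their nearest arrays, and the N1ICD values differed from each other by an SD of only 0.0041. The rise was 1.40-fold (log2 change 0.48 ± 0.09, adjusted p = 0.0143; interval 0.28 to 0.69). Leaving out a single array ended the call of Cat in 3 cases: control replicate 1 (0.46, adjusted p = 0.0524), control replicate 2 (0.48, adjusted p = 0.0607) and replicate 2 of N1ICD (0.49, adjusted p = 0.0576). Cited2, Sod2 and Cat were the 3 of 8 genes whose groups did not overlap, against 26.1% of all genes.

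**Figure D2:**
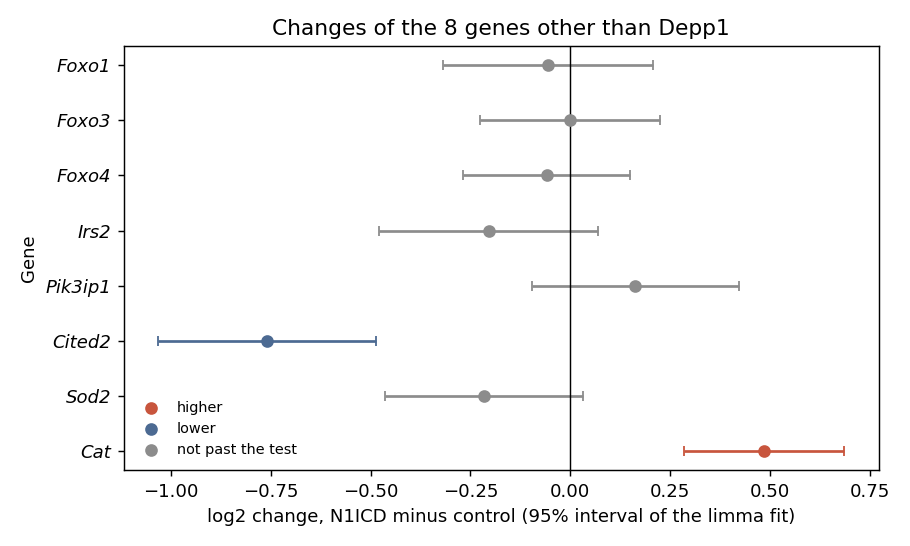
log2 change (N1ICD minus control, horizontal axis) of the 8 genes other than Depp1, with the 95% interval of the limma fit (n = 3 arrays per group). Cited2 at -0.76 and Cat at 0.48 are the pair whose calls passed the test, and the intervals of the 3 FOXO genes shown span 0.

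Of 33 listed genes of the insulin receptor, PI3 kinase and AKT route, its mTORC1 branch included, 31 were measured. They are called upstream here, although that branch lies beside FOXO and Tsc1 is in the target list too. The limma fit called 0 higher and 3 lower (0% and 9.68%, against 3.82% and 3.27% of all genes), with 28 not past the threshold. At an unadjusted p under 0.05, 1 was higher and 8 lower (3.23% and 25.8% of the list, against 8.67% and 11.2% of all genes). Falls at that cutoff made up 19.4% of the FOXO factors and cofactors listed below. They made up 21.8% of the targets other than Depp1 and 6% of the antioxidant and peroxisome genes. After cyclic loess the fit called 1 upstream rise at the adjusted threshold. The list median was -0.16, against -0.02 over all genes and -0.05 over the 11090 genes kept with dim genes left out. Most of the listed genes were among those kept. In the fit of those 11090 genes 908 rose and 1289 fell, against 848 and 726 of all 22180 in the main fit. The list held 1 rise and 3 falls there. The share of falls was thus larger among the brighter genes than over all genes, and nothing is read from the list's share. Inppl1, which encodes the lipid phosphatase SHIP2, fell by 1.28 on the log2 scale (SE 0.14, adjusted p = 0.00118), from 9.76 ± 0.08 to 8.48 ± 0.26 (SD, n = 3). Tsc1, part of the complex that restrains mTORC1, fell by 0.52 (SE 0.12, adjusted p = 0.034) and the receptor adaptor Grb10 by 0.51 (SE 0.12, adjusted p = 0.0439). Of the 6 fits with 1 array left out, only that without N1ICD replicate 3 kept these 2 calls, and each of the other 5 left 1 fall in the list (adjusted p up to 0.117 for Tsc1 and 0.151 for Grb10). Grb10 was also not past the test under equal array medians (adjusted p = 0.0648). The kinases Akt1 (0.01 ± 0.10) and Akt2 (-0.04 ± 0.09), the PI3 kinase subunits Pik3ca (-0.04 ± 0.09) and Pik3r1 (0.15 ± 0.12) and the receptors Insr (-0.31 ± 0.11) and Igf1r (0.32 ± 0.16) did not pass the test (adjusted p from 0.169 for Insr to 0.981 for Akt1). These 6 were named after their values were seen.

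Among FOXO factors, the enzymes that modify them and their cofactors, 36 of 39 listed genes were measured. Of these 2 rose and 2 fell (5.56% each, against 3.82% and 3.27% of all genes), and 32 were not past the threshold (median -0.06). Fhl2, a LIM protein that binds FOXO1, rose by 0.68 ± 0.14 (limma adjusted p = 0.0244), and the deacetylase Sirt2 by 0.41 ± 0.09 (adjusted p = 0.0351). Foxo6, the FOXO factor best known from neurons, fell from 8.01 ± 0.12 to 7.32 ± 0.24 (SD, n = 3), a log2 change of -0.69 ± 0.14 (adjusted p = 0.0224), and Cited2 was the other fall. Foxo6 lost its call without control replicate 1 or 3 or N1ICD replicate 2 (highest adjusted p = 0.0742). Fhl2, among the 6 fits with 1 array left out, kept its call only in that without N1ICD replicate 1 (adjusted p up to 0.0815 in the other 5), and Sirt2 only in that without N1ICD replicate 3 (up to 0.13). With 1 array left out, 0 rose without any of the 3 controls or without N1ICD replicate 2, and 1 without N1ICD replicate 1 or 3. The falls were 1 without control replicate 3 or N1ICD replicate 2. Under equal array medians the split was 1 rise and 2 falls, Sirt2 being lost (adjusted p = 0.0697). Sirt1, the deacetylase most studied on FOXO proteins, had -0.16 ± 0.09 (adjusted p = 0.385) and was named after its value was seen.

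Genes known as FOXO targets in other cells went both ways. Of 57 listed, 56 were measured. Depp1 is one of them and is left out of the counts, since it was chosen by its rise. Of the other 55, 4 rose, 10 fell and 41 did not pass the threshold, with a median of -0.06. The rises and falls made up 7.27% and 18.2% of them, against 3.82% and 3.27% of all genes. Most of the listed targets were among the 11090 genes kept with dim genes left out. In that fit 908 of the genes kept rose and 1289 fell, and the targets other than Depp1 held 4 rises and 9 falls. The share of falls over all genes was thus smaller than that among brighter genes. Without the 9 members, 3 of 50 rose and 9 fell (6% and 18%). The list was chosen with earlier results of these data known, so no test was made of these shares. Besides Cat, the rises were Ccnd1 (5.41 ± 0.17, limma adjusted p = 1.4e-06), Bcl6, a transcriptional repressor (0.63 ± 0.14, adjusted p = 0.0327), and the autophagosome protein Map1lc3b (0.51 ± 0.09, adjusted p = 0.0141). FOXO factors are known to lower Ccnd1 and Ccnd2 elsewhere. Ccnd2 changed here by -1.35 ± 0.26 (adjusted p = 0.0202), from 6.34 ± 0.48 to 4.99 ± 0.38 (SD, n = 3). That N1ICD mean lay below the median gene of every array, and Ccnd2 was not in the fit with dim genes left out. Without N1ICD replicate 2 the call of Ccnd2 was lost (-1.13, adjusted p = 0.0686).

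The largest fall among the targets was that of Fst, the activin-binding protein follistatin (log2 change -1.51 ± 0.13, adjusted p = 0.000286). The chemokine receptor Cxcr4 fell by 0.99 (SE 0.15, adjusted p = 0.00605), the atrophy ubiquitin ligase Fbxo32 by 0.82 (SE 0.10, adjusted p = 0.00211) and the estrogen receptor Esr1 by 0.65 (SE 0.14, adjusted p = 0.0256). Txnip, an inhibitor of thioredoxin, fell by 0.64 (SE 0.09, adjusted p = 0.0042). The others were Cited2, Tsc1 and, named after their values were seen, the pseudokinase Trib1 (-0.59 ± 0.11) and the translation repressor Eif4ebp1 (-0.56 ± 0.11). All of these come from the limma fit over all genes. Fst, Cxcr4, Fbxo32 and Txnip kept their calls without any 1 array. Esr1 lost its call without control replicate 2 or 3 or N1ICD replicate 1 or 2 (highest adjusted p = 0.0926), and Trib1 without control replicate 1 or 3 or N1ICD replicate 1 or 2 (0.0781). Of the 6 fits with 1 array left out, Eif4ebp1 and Bcl6 kept their calls only in that without N1ICD replicate 1 (up to 0.0832 and 0.122 in the other 5), and Map1lc3b lost it without control replicate 2 or 3 or N1ICD replicate 2 (0.0645). Under equal array medians Bcl6 was not past the test (adjusted p = 0.0567). With 1 array left out the list without Depp1 held 1 to 4 rises, the fewest without control replicate 2 or N1ICD replicate 2, and 5 to 9 falls, the fewest without N1ICD replicate 2.

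Several textbook FOXO targets did not pass the test, and all of the following were named after their values were seen. The CDK inhibitor Cdkn1b had a log2 change of 0.21 ± 0.12 (limma adjusted p = 0.363), the death gene Bcl2l11 0.08 ± 0.10 (adjusted p = 0.726) and the stress gene Sesn3 -0.14 ± 0.13 (adjusted p = 0.632). Ccng2, an unconventional cyclin, had -0.10 ± 0.13 (adjusted p = 0.738). Pdk4, which restrains pyruvate oxidation, had 0.62 ± 0.16 (adjusted p = 0.0614), with every N1ICD array above every control.

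**Figure D3:**
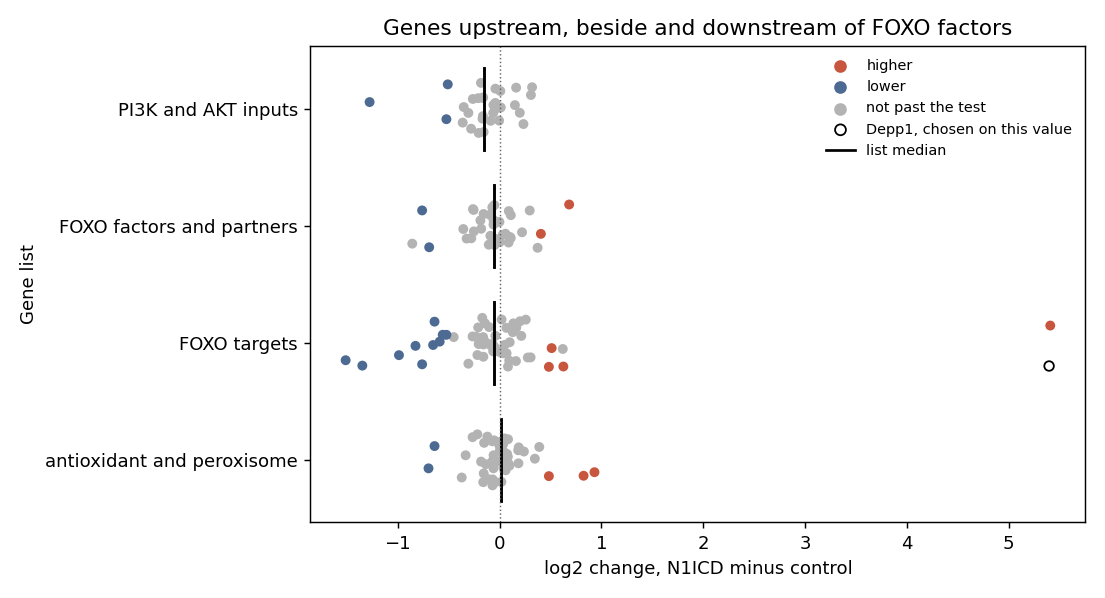
log2 change (horizontal axis, N1ICD minus control) of each measured gene in the 4 lists (31, 36, 56 and 50 genes), with red for genes that rose, blue for genes that fell and grey for genes not past the test. A black bar marks each list median, between -0.16 and 0.01, and the point near 5.41 in the target list is Ccnd1, beside Depp1 as an open circle.

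Because DEPP1 and catalase meet at the peroxisome, antioxidant and peroxisome genes were listed too. Of 59, 50 were measured, and 3 rose and 2 fell (6% and 4%, against 3.82% and 3.27% of all genes). The other 45 were not past the threshold, and the list median was 0.01. Nfe2l2, the antioxidant regulator NRF2, rose by 0.93 ± 0.10 (limma adjusted p = 0.000997), from 9.21 ± 0.10 to 10.14 ± 0.07 (SD, n = 3), and kept its call without any 1 array. Its well-known targets Nqo1 (0.35 ± 0.16, adjusted p = 0.283), Hmox1 (0.10 ± 0.14, adjusted p = 0.769) and Gclm (0.04 ± 0.09, adjusted p = 0.882) did not pass the test and were named after their values were seen. Pparg, a nuclear receptor of lipid metabolism, rose by 0.83 ± 0.15 (adjusted p = 0.0165) from a control mean of 5.98, below the median gene of every array. Its call was lost without control replicate 1 or 3 or N1ICD replicate 3 (highest adjusted p = 0.0604).

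Glrx, the cytosolic glutaredoxin, fell by 0.70 on the log2 scale (SE 0.12, limma adjusted p = 0.0116), a call lost without N1ICD replicate 2 (adjusted p = 0.0546), and Txnip was the other fall. There was 1 rise in the fit without control replicate 1, and there were 2 in the fits without control replicate 2, without control replicate 3 and without N1ICD replicate 2. The last of these held 1 fall. Of the peroxisome assembly genes, Pex7, the import receptor that DEPP1 is reported to bind, had -0.33 ± 0.15 (adjusted p = 0.26), and Pex5, the other import receptor, 0.01 ± 0.13 (adjusted p = 0.987). Cat was the listed peroxisomal enzyme past the test, while Hacl1 (0.19 ± 0.11), Phyh (0.08 ± 0.12), Ehhadh (-0.04 ± 0.09) and Hsd17b4 (-0.07 ± 0.13) were not past it (adjusted p between 0.387 and 0.869). These 6 genes were named after their values were seen.

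Notch1 rose from 6.17 ± 0.19 to 7.76 ± 0.29 (SD, n = 3, limma adjusted p = 0.000889). Whether its probe set reads the insert, the cells' own Notch1 or both was not tested. Of 7 neuroendocrine markers 6 were measured and had control means above every array's median gene; Chga and Ncam1 rose, Dll3 and Insm1 fell. Of 8 endothelial markers 2 rose, Kdr (3.04 ± 0.17) and Tek (1.06 ± 0.14), and the mean of the list went from 5.47 to 5.55 in control arrays to 6.03 to 6.12 in N1ICD arrays. The other 6, the defining Pecam1 and Cdh5 among them, lay below every array's median gene in both groups. Of 6 fibroblast markers Pdgfra fell, with list means of 5.83 to 5.90 and 5.63 to 5.67. Of 6 macrophage and leukocyte markers Lyz2 rose, from 4.06 to 4.59, with list means of 4.75 to 4.83 and 4.76 to 4.80. Ptprc was at 3.44 and 3.62, and Adgre1, Cd14, Cd68 and Csf1r had negative changes that did not pass the test. All but Cd68, Lyz2 included, lay below every array's median gene in both groups. The part of these shifts in the results for Depp1 and the FOXO-linked genes was not tested.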

How the data were processed

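RNA of 6 KP1 samples was measured on 6 arrays, 3 per group. The authors deposited log2 values after RMA (no version given), per the submitters' processing notes. Base 2 is RMA's own and was taken from the range of the values (0.64 to 14.09). RMA equalises the arrays' distributions and compresses changes of dim probe sets.

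Of 41345 probe sets, 23521 carry 1 gene symbol in the platform annotation, 1814 several, and 16010 are not listed there. Symbols were updated through gene identifiers in RefSeq, and the brightest single-symbol probe set by 6-array mean stood for a gene. All 22180 genes were tested, N1ICD minus control, with two-sided moderated tests of limma 3.58.1 under R 4.3.3. The p-values were adjusted over all of them after Benjamini and Hochberg, and an adjusted p under 0.05 was called. Each ± is an SE after a log2 change and an SD after a mean. The p-values measure the spread between these samples only. The members and gene lists were chosen with earlier results of these data known.

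Named were all 9 members, up to 5 changed genes per list and direction by size, and the genes nearest to Depp1 in change or profile; others are marked where they appear. Alternatives were equal array medians, cyclic loess, leaving out dim genes (11090 kept), the mean over probe sets, an intensity trend with robust eBayes, an adjusted p under 0.01, a replicate block and leaving out each array. Simulated data of 22180 genes in the design of N1ICD against control had independent normal noise. Changes of 0.5, 1 and 2 on the log2 scale were given to 67, 67 and 66 genes, and 17.9%, 77.6% and 98.5% of them were called. Fewer genes changed there than the 1574 called in the real arrays, so these rates need not hold for the real fit. The number of arrays limits the precision. Promoter sequences come from RefSeq, build GRCm38.p6. Plots used matplotlib 3.10.9, and files were read with data.table (version 1.17.8).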

Additional observations from a re-analysis of the deposited data

How the results depend on the processing

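Of 156 counts under the alternatives, 106 stayed within 1.5 times the count reported, and of 347 values of named genes 287 kept their direction and their side of the threshold, or for Depp1, which has no test, stayed within its replicate spread. Depp1 ranged from 5.28 to 5.50 and Cited2 from -0.85 to -0.66. The signs that reversed belong to genes near 0. Foxo3 had 0.049 after cyclic loess, and with 1 array left out Foxo3 ranged from -0.053 to 0.058 and Foxo1 from -0.144 to 0.032.

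At an adjusted p under 0.01, 460 genes rose and 208 fell. Of the members other than Depp1 0 then rose, of the upstream list 1 fell, of the partners 0 rose and 1 fell, of the targets other than Depp1 1 rose (2 with Depp1 in the list) and 5 fell, and of the antioxidant and peroxisome list 1 rose and 1 fell. With dim genes left out 1289 genes fell, as did 1227 with robust eBayes and an intensity trend, and under each of these 1 upstream gene rose and 4 partners fell. The trend fit also gave 5 rises in the antioxidant and peroxisome list. Cyclic loess gave 1 upstream rise and equal array medians 1 partner rise. Leaving Depp1 out of the target counts was chosen after seeing the data. The causes were not tested.

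With each array left out in turn, 548 to 709 genes rose and 275 to 585 fell. Between 0 and 1 of the members other than Depp1 rose, 1 to 3 upstream genes fell, 0 to 1 partners rose and 1 to 2 fell. Of the targets other than Depp1 1 to 4 rose (2 to 5 with Depp1 in the list) and 5 to 9 fell, and of the antioxidant and peroxisome list 1 to 3 rose and 1 to 2 fell.

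The labels number the samples but do not say that a number marks a shared culture. Deviations of same-numbered arrays from their group means correlated at 0.23, 0.0083 and 0.20, and control replicate 2 did not correlate best with its own number. With the replicate block 814 genes rose and 704 fell, and 1 partner rose, Sirt2 being lost (adjusted p = 0.0593).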
